A study of Homo sapiens with 6 samples.

Results

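The ZNF genes of human chromosome 19 were followed across the 3 conditions of a knockout experiment in DU145 cells. They were chosen by name and level: a symbol made of ZNF, a number and at most 1 further letter, a locus on chromosome 19, and a level that reached 1 FPKM in any of the 3 columns. FPKM counts the fragments of a gene per length of its transcript and per mapped fragment of its library. Of 254 genes of this name on the chromosome, 186 passed, out of 12822 genes that reached 1 FPKM among the 27381 in the table. The other 68 lay under 1 FPKM in every column, and 13 of these were at 0 throughout.

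Zinc finger proteins of the C2H2 class bind DNA through a row of small domains, each folded around a zinc ion held by cysteines and histidines. Many carry a KRAB domain, which binds the corepressor TRIM28 and through it the histone methyltransferase SETDB1, so that H3K9me3 is laid down at the sites they bind, many of them in transposable elements. On chromosome 19 the genes arose by repeated duplication and stand side by side in clusters, and their own 3′ ends are a known place for ZNF274, TRIM28 and SETDB1.

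RNA came from DU145, an epithelial line from a metastatic prostate cancer, in 6 libraries, 2 for each condition. Scr cells received Cas9 and a scrambled sgRNA. CD24 KO and RCC2 KO cells received Cas9 with paired sgRNAs against CD24, a surface glycoprotein, or RCC2, a regulator of chromosome condensation and cell migration. The GFP-positive cells were sorted and expanded as clones, and the labels do not say which clones the libraries came from. The deposited table has 1 value per gene and condition. The RCC2 KO column may hold 1 library or both, since its name fits both. Without values for single libraries there is no SD, no test and no p-value, every difference lacks a replicate check, and the depth behind the values is unknown. The same values chose the genes and are compared here, so all counts below are descriptions.

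The targeted genes did not follow their labels at the RNA level. CD24 was at 93.2 FPKM in Scr, 309 in the column labelled CD24 KO and 214 in the column labelled RCC2 KO. RCC2 was at 37.8, 14.2 and 41.8 FPKM in the same order. The columns are therefore named throughout as labelled, and no direction below rests on a check of the knockout. Epithelial markers of DU145 were present, with KRT8 at 336, 149 and 348 FPKM and EPCAM at 58.9, 44.9 and 58.6 FPKM, lower in CD24 KO, and KRT19 at 83.5, 113 and 107 FPKM and CDH1 at 27.9, 52.6 and 23.7 FPKM, higher there than in Scr, while KLK3 and the leukocyte gene PTPRC were at 0 in all columns and PECAM1 and COL1A1 stayed under 1 FPKM.

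The family can be seen in its coding sequence. The first finger of 5 members is printed below because these are the highest member (ZNF146), the 3 members with the largest increases in the column labelled CD24 KO, and the member with the largest decrease there (ZNF787). Each is 63 bases of the coding strand of a GENCODE 29 transcript, and capitals mark the codons of the cysteines and histidines that hold the zinc.
ZNF146: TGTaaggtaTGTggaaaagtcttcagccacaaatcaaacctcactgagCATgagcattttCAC
ZNF560: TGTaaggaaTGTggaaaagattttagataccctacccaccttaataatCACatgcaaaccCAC
ZNF350: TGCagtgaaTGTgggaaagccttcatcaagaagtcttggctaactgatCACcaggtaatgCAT
ZNF404: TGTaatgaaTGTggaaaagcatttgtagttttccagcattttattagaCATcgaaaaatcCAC
ZNF787: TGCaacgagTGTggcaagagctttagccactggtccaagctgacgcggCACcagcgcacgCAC
Between these fingers 44.4% (ZNF404 and ZNF787) to 63.5% (ZNF146 and ZNF560) of the bases were the same, although the marked codons stand at the same places. Over the 184 members with a coding sequence the median was 12 fingers, from 1 in ZNF428 to 31 in ZNF91.

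The 250 bases before the start of the last 4 of these members are shown as well, read from RefSeq on GRCh38.p14 in the direction of the gene, with every CG in capitals, since a CG is where DNA methylation is placed.
ZNF560, chr19:9498617-9498866, minus strand: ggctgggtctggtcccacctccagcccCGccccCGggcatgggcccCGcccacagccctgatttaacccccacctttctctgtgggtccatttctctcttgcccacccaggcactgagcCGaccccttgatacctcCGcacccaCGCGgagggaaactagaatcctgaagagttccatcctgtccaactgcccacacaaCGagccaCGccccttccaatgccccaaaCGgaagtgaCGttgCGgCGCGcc
ZNF350, chr19:51986841-51987090, minus strand: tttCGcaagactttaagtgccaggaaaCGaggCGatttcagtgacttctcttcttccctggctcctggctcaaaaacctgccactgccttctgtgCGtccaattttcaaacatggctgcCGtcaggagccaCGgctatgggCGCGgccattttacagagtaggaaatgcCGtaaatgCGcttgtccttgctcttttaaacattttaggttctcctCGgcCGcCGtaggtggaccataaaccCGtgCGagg
ZNF404, chr19:43883965-43884214, minus strand: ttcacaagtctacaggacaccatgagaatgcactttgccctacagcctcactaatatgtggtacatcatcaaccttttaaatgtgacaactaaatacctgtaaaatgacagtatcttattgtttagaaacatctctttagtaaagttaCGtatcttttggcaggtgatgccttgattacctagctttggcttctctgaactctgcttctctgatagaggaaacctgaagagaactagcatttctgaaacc
ZNF787, chr19:56121296-56121545, minus strand: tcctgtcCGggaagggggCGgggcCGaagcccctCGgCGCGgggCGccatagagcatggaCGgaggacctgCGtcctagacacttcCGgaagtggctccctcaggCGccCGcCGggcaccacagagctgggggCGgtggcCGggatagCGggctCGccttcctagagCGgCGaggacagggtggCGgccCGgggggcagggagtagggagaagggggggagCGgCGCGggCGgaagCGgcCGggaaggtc
These windows held 14, 15, 1 and 27 CGs. Among the 164 members with a RefSeq promoter the median was 16.5 CGs in such a window, against 11 over all 35116 promoters. In the whole 300 bases, 50 of them after the start, every one of the 164 held a CG, as did 96.0% of all promoters. ZNF404 thus stood apart from ZNF560, ZNF350 and ZNF787 in having almost none.

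Most of the family was expressed at low levels. The median member was at 2.24 FPKM in Scr, 2.97 in the column labelled CD24 KO and 2.31 in the column labelled RCC2 KO. The same medians over all genes compared were 10.5, 10.2 and 10.5 FPKM, and over the 220 ZNF genes of other chromosomes 4.71, 4.63 and 4.94 FPKM. Summed over the 186 members, the columns gave 745, 861 and 756 FPKM. An FPKM of at least 1 was reached by 152 members in all 3 columns. A further 14 passed through the column labelled CD24 KO alone, 3 through RCC2 KO alone, 8 through both of these, 7 through Scr and CD24 KO, and 2 through Scr and RCC2 KO. The members that passed only through one column had to be higher there. The 14 and the 8 were under 1 FPKM in Scr, so they had to be above Scr in CD24 KO. The 2 that passed through Scr and RCC2 KO had to be below Scr there. Just outside the threshold lay ZNF417 (0.997 FPKM at its highest), ZNF418 (0.992) and ZNF850 (0.969), and just inside it ZNF443 (1.05), ZNF543 (1.06) and ZNF780B (1.08).

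A few members were well above the rest. ZNF146, a protein made of fingers alone, was at 106 FPKM in Scr, 107 in CD24 KO and 104 in RCC2 KO, the highest member and nearly level across the columns. ZNF358 followed at 33.6, 40.4 and 29.3 FPKM. ZNF317 was at 20.9, 16.9 and 21.1 FPKM, ZNF227 at 14.0, 12.8 and 11.8, and ZNF121 at 13.6, 11.3 and 12.7. Of these 5 genes only ZNF358 and ZNF146 had their highest value in the column labelled CD24 KO, and none passed 1.5-fold in any comparison. The sixth in rank, ZNF787, did, and is described with the decreases.

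In the column labelled CD24 KO the ZNF genes of chromosome 19 were, on balance, higher than in Scr. The median difference of log2(FPKM + 1) was 0.22. Of the 186 members 136 (73.1%) were higher and 50 lower, a split that the filter fixed in part. Over all genes compared the median was -0.03 with 47.0% higher, over the 727 other genes of chromosome 19 it was -0.11 with 39.3% higher, and over the ZNF genes of other chromosomes -0.00 with 49.5% higher. At least 1.5-fold on this scale, 29 members (15.6%) were higher, against 9.55% of all genes, and 5 (2.69%) were lower, against 11.6% of all genes. At least 2-fold, 6 were higher (3.23%, against 2.67% of all genes) and 0 were lower (against 3.03%). On this scale the shift was thus one of many modest differences. The share of members at least 2-fold higher was close to that of all genes, while the share at least 2-fold lower was below it. Adding 1 narrows differences at low FPKM, and with 0.1 added instead 55 members were at least 1.5-fold higher and 6 lower. The 6 at 2-fold became 1 when 1 FPKM was asked for in all 3 columns, 3 without the members that passed through CD24 KO alone, and 15 and 0 with pseudocounts of 0.1 and 5. With only genes that reached 1 FPKM in all 3 columns, 18 of 152 members (11.8%) were at least 1.5-fold higher and 4 (2.63%) lower, against 7.60% and 11.8% of 11588 genes. The filter fixed no direction in these. The 152 members had a median of 0.18 with 71.1% higher, against a median of -0.06 over the 11588 genes. Lower RNA per cell and fewer cells that express a gene cannot be told apart in such bulk values.

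**Figure D1:**
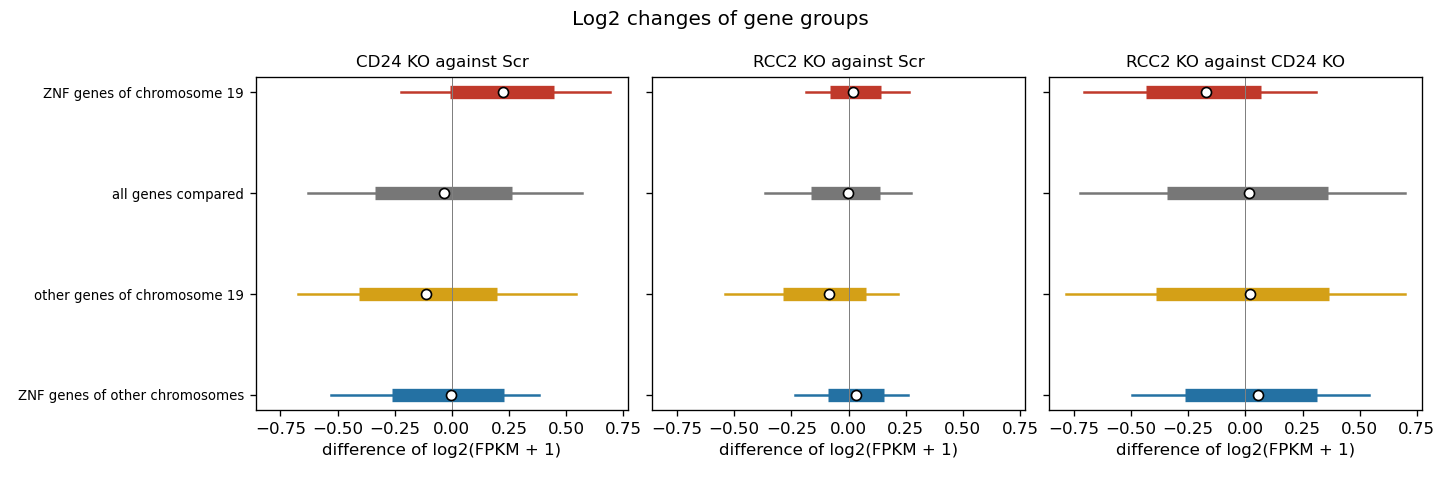
Differences of log2(FPKM + 1) in 3 comparisons (horizontal axis, the same in each panel) for the 186 ZNF genes of chromosome 19, all 12822 genes compared, the 727 other genes of chromosome 19 and the 220 ZNF genes of other chromosomes; the circle is the median, the thick bar the middle 50% of genes and the thin line the 10th to 90th percentile. The chromosome 19 ZNF genes have their median at 0.22 in CD24 KO against Scr and at 0.02 in RCC2 KO against Scr.

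Level moved with this difference. Genes with low FPKM tended to be higher in the column labelled CD24 KO whatever their name: among genes not named ZNF the median difference was 0.17 at a mean under 2 FPKM (1690 genes), 0.12 from 2 to under 4 FPKM (1438 genes), 0 from 4 to under 10 FPKM (2731 genes) and -0.13 above that (6557 genes). In the same ranges the members had medians of 0.26 (64 genes), 0.22 (68 genes), 0.23 (41 genes) and -0.00 (13 genes). The members thus lay above other genes of like level in each range. Subtracting the median of 20 bins of level left the members at a median of 0.12, with 64.5% higher, so that part of the difference from all genes went with level. Transcript GC content, at a median of 42.4% in the members and 48.4% in all genes compared, and transcript length were corrected for together, after which the members' median was 0.24.

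The difference was not spread evenly along the chromosome. Ordered by start, the 254 genes fell into 9 clusters, each a run of at least 5 genes with no gap over 1 Mb between starts, and 11 genes lay outside them. Positions are those of the table, whose build is not named and which was read as hg19. In the cluster from ZNF146 to ZNF573 (chr19:36672962-38270230) all 20 members were higher in the column labelled CD24 KO than in Scr, with a median log2 difference of 0.49. Of these ZNF565 reached 1 FPKM in CD24 KO alone and had to be higher there. In the cluster from ZNF175 to ZNF331 (chr19:52074490-54083523) 32 of 33 were higher, with a median of 0.43. The exception was ZNF432, at 1.43, 1.27 and 1.62 FPKM in Scr, CD24 KO and RCC2 KO. Of the others, ZNF649, ZNF613, ZNF350, ZNF701, ZNF415 and ZNF677 reached 1 FPKM in CD24 KO but not in Scr, so they had to be higher. These 2 clusters were picked for having the highest medians of the 9, so their contrast with the rest was fixed in part by that choice. Together they held 53 members, of which 52 were higher and 15 (28.3%) at least 1.5-fold higher, and none was at least 1.5-fold lower. Over the 133 members elsewhere on the chromosome the median was 0.14, with 84 higher, 14 (10.5%) at least 1.5-fold higher and 5 (3.76%) lower. The shares of all genes were 9.55% and 11.6%, so that the share of increases elsewhere was near that of all genes. With the level bins subtracted the medians of these clusters were 0.37 and 0.32.

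**Figure D2:**
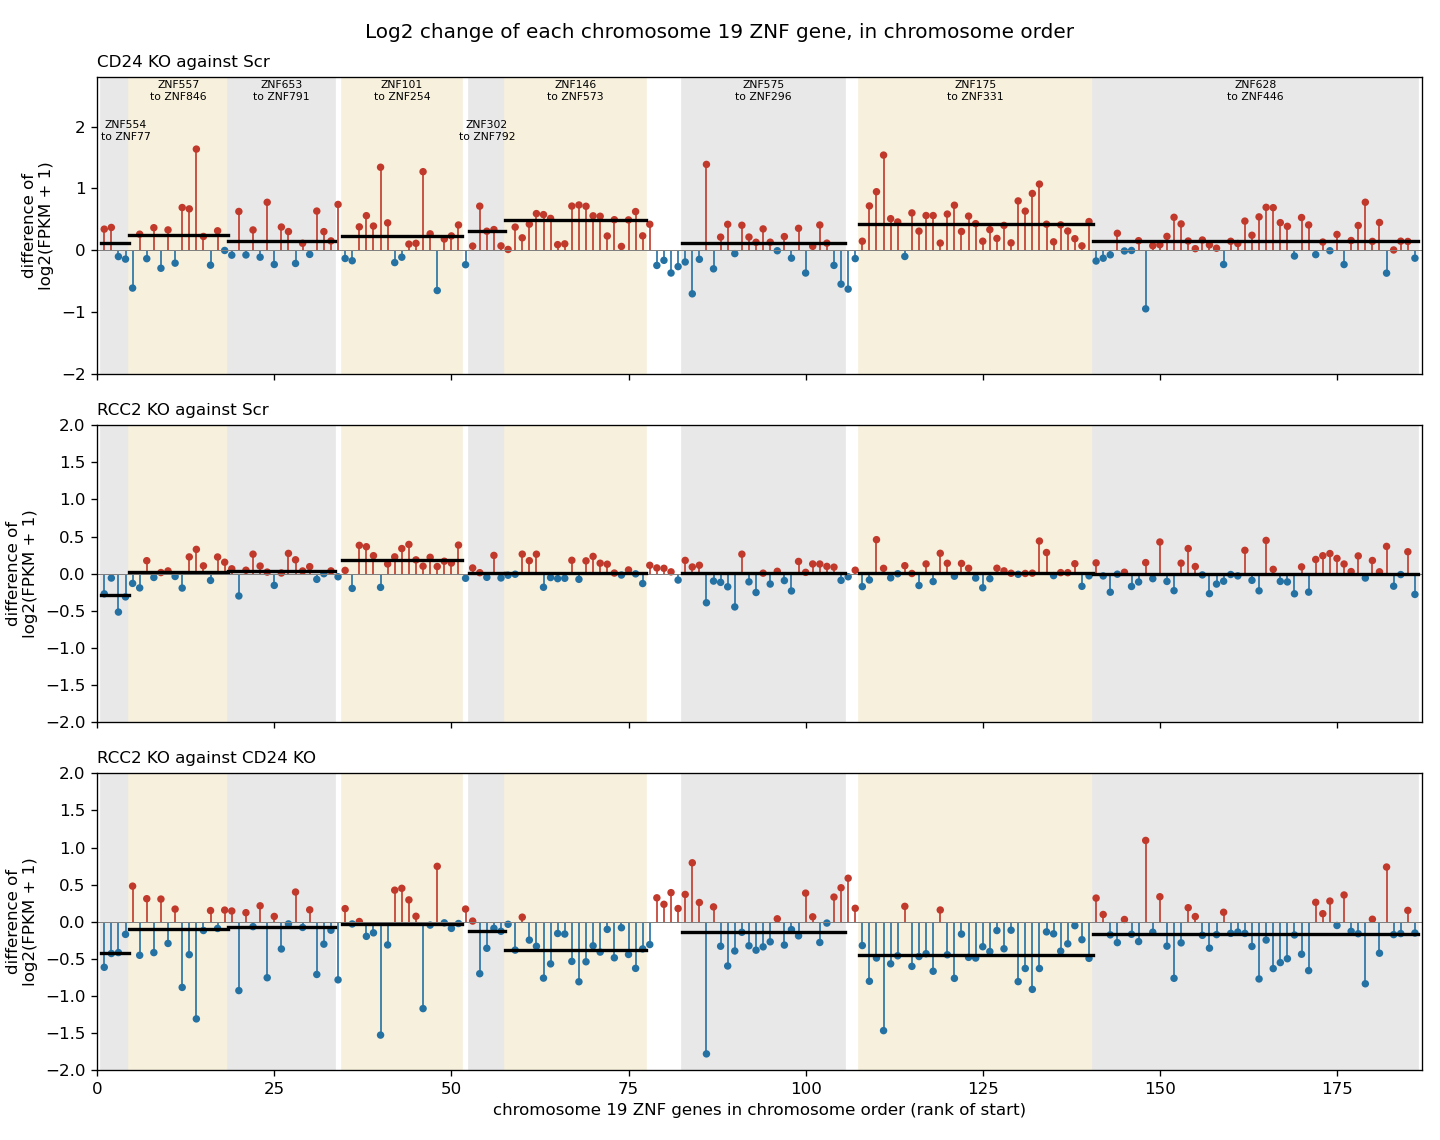
Each of the 186 ZNF genes is a stem in chromosome order (horizontal axis, rank of start), with its difference of log2(FPKM + 1) on the vertical axis in 3 comparisons; shaded bands are the 9 clusters, named by first and last gene, and black lines their medians. In the top panel the bands from ZNF146 and from ZNF175 stand at medians of 0.49 and 0.43, and in the middle panel the band from ZNF101 stands at 0.19.

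The other clusters were more mixed. The 5 members from ZNF302 to ZNF792 (chr19:35168544-35454953) were all higher, with a median of 0.31, and with the neighbouring cluster and ZNF546 they made the longest unbroken run, 26 members in a row from ZNF302 to ZNF546. In this run ZNF599, ZNF565 and ZNF546 reached 1 FPKM in CD24 KO alone and had to be higher there. Directly after the run came 7 members that were all lower, from ZNF780B to ZNF283. The cluster from ZNF557 to ZNF846 (chr19:7069471-9879410) had a median of 0.24 with 8 of 14 higher, and that from ZNF101 to ZNF254 (chr19:19778962-24312769) 0.23 with 12 of 17. The medians were smaller in the clusters from ZNF653 to ZNF791 (chr19:11594242-12740676; 0.15, 9 of 15), ZNF628 to ZNF446 (chr19:55987699-59000900; 0.14, 33 of 46), ZNF554 to ZNF77 (chr19:2819872-2944969; 0.12, 2 of 4) and ZNF575 to ZNF296 (chr19:44037340-45579846; 0.12, 13 of 23). The filter fixed part of these counts. In the cluster from ZNF557, ZNF177 and ZNF560 reached 1 FPKM in CD24 KO but not in Scr and had to be higher. So had ZNF506, ZNF826P and ZNF429 (from ZNF101) and ZNF433, ZNF625, ZNF136 and ZNF490 (from ZNF653). The same held for ZNF471 and ZNF470 (from ZNF628) and ZNF221 and ZNF284 (from ZNF575). ZNF724 and ZNF296 reached 1 FPKM in Scr but not in CD24 KO and had to be lower. The 9 members outside clusters had a median of -0.23, with 2 higher. The clusters thus ranged from those in which every member was higher to those whose members were nearly evenly split.

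Genes with other names inside the same stretches gave few values. In the span from ZNF146 to ZNF573, 9 such genes had a median log2 difference of 0.27 and 7 were higher, but 4 of them are zinc finger genes and 2 are antisense to members. The remaining 3 were LINC00665, at a difference of -0.02, LOC728752, at 0.01, and LINC01534, at 0.54. Of the zinc finger genes, HKR1, which has a KRAB domain, was at 18.4, 24.8 and 18.2 FPKM in Scr, CD24 KO and RCC2 KO. In the span from ZNF175 to ZNF331 only 3 such genes were compared, with a median of -0.45 and 1 higher. The highest of these, PPP2R1A, the scaffold subunit of protein phosphatase PP2A, was at 61.0, 44.5 and 57.0 FPKM, lower in CD24 KO while the ZNF genes around it were higher.

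Within the cluster from ZNF146 to ZNF573, 5 members were at least 1.5-fold higher in the column labelled CD24 KO. ZNF420, known as a KRAB repressor of p53 activity, was at 3.03 FPKM in Scr, 5.60 in CD24 KO and 3.54 in RCC2 KO. ZNF568 was at 1.60, 3.33 and 1.47 FPKM, ZNF829 at 3.14, 5.79 and 3.68, ZNF571 at 2.18, 3.91 and 2.17, and ZNF529 at 2.61, 4.44 and 3.33. The positions of ZNF829, ZNF571 and ZNF529 overlap other genes, among them antisense genes, and reads of these cannot be told apart here. The CD24 KO value was the highest of the 3 in each of these genes, with log2 differences from Scr of 0.59 in ZNF529 to 0.73 in ZNF568. ZNF146, at the edge of the cluster, and ZNF569 (4.81, 5.07 and 4.74 FPKM) were higher by 0.01 and 0.06 only.

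The cluster from ZNF175 to ZNF331 held 10 of the 29 members at least 1.5-fold higher. Of these 10, ZNF350, ZNF649 and ZNF415 reached 1 FPKM in CD24 KO alone and so had to be higher there. ZNF613 reached it in CD24 KO and RCC2 KO but not in Scr, so it had to be above Scr in both. ZNF350, also called ZBRK1 and known as a transcriptional repressor, was at 0.0718 FPKM in Scr, 2.12 in CD24 KO and 0.126 in RCC2 KO, with a log2 difference of 1.54 from Scr. ZNF347 was at 1.08, 3.36 and 1.82 FPKM, a difference of 1.07, and ZNF613 at 0.988, 2.83 and 1.73 FPKM, a difference of 0.95. These genes stood highest in the column labelled CD24 KO, but ZNF347 and ZNF613 were also higher in RCC2 KO than in Scr, by 0.44 and 0.46. ZNF350 overlaps its antisense gene ZNF350-AS1, and reads of the pair cannot be told apart here. ZNF83, the highest of the cluster in Scr, was at 10.8, 16.3 and 11.4 FPKM, and ZNF331, an imprinted gene, at 10.4, 14.7 and 10.2 FPKM. Both stayed under 1.5-fold, as did ZNF175, at 3.21, 3.65 and 2.73 FPKM. ZNF468 and ZNF320 share 99.1% and 99.5% of their transcripts' 100-base words with other transcripts, so their values are uncertain. Without the members that share such words the median of the cluster was 0.56.

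**Figure D3:**
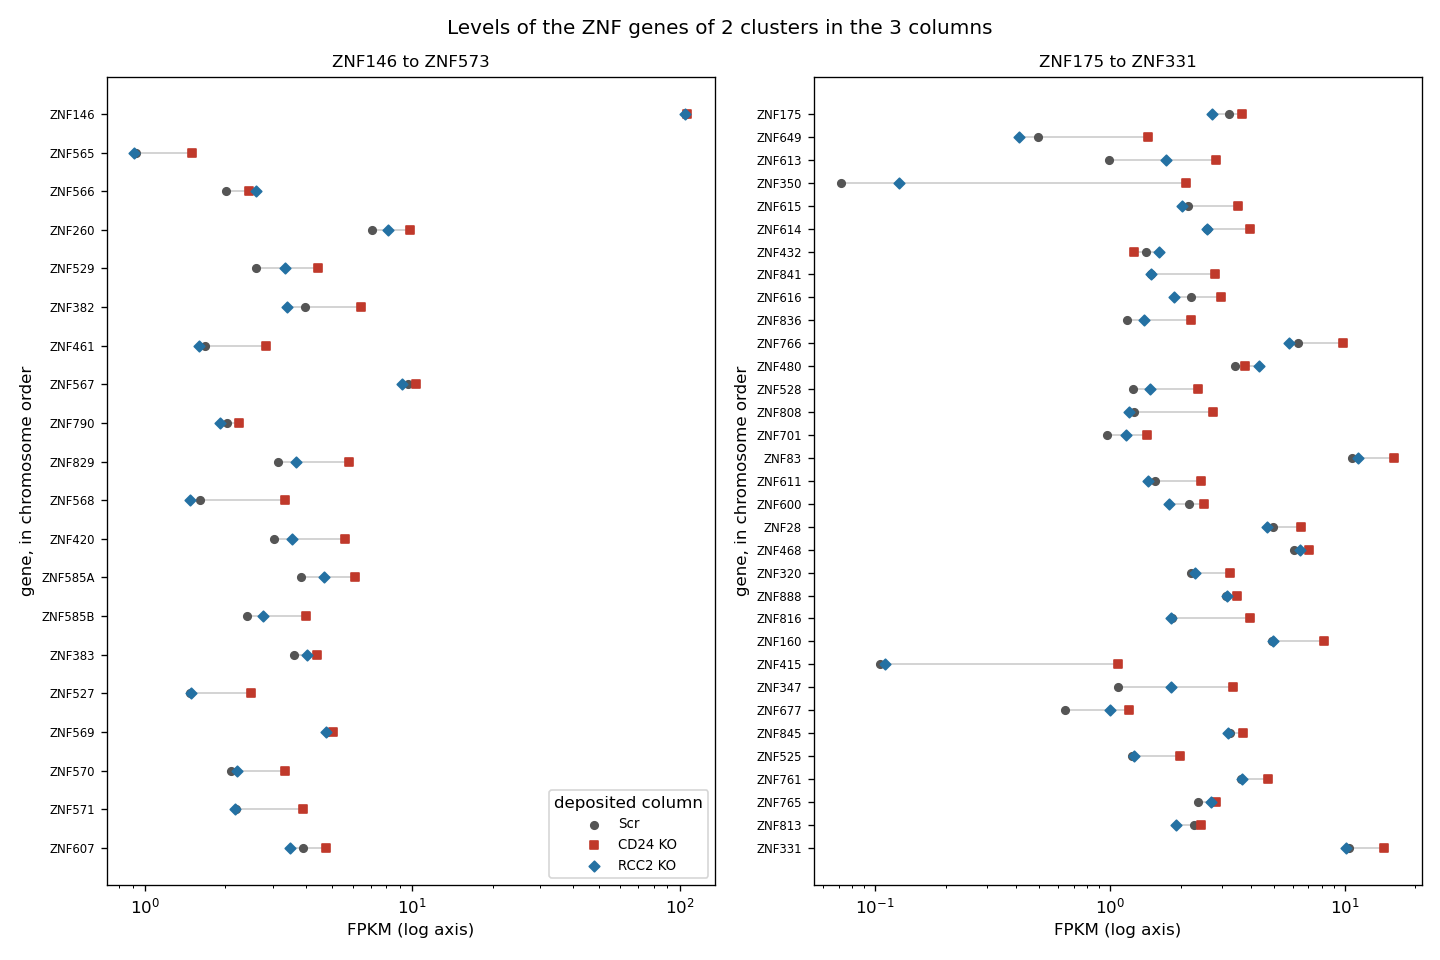
FPKM (horizontal log axis) of the 20 and 33 ZNF genes of the clusters from ZNF146 to ZNF573 and from ZNF175 to ZNF331, in chromosome order from top to bottom, with 1 mark for each deposited column. The CD24 KO squares stand to the right of the Scr circles in 52 of the 53 genes, all but ZNF432.

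The largest increases elsewhere were single genes. ZNF560, in the cluster from ZNF557, was at 0.800 FPKM in Scr, 4.60 in CD24 KO and 1.26 in RCC2 KO, the largest difference of all members at 1.64. It reached 1 FPKM in CD24 KO and RCC2 KO but not in Scr, so it had to be above Scr in both. ZNF404, in the cluster from ZNF575, was at 1.28, 4.97 and 0.737 FPKM, higher by 1.39 in CD24 KO and lower by 0.39 in RCC2 KO. As it reached 1 FPKM in Scr and CD24 KO but not in RCC2 KO, it had to be lower in RCC2 KO. ZNF429, in the cluster from ZNF101, was at 0.270, 2.07 and 0.361 FPKM, a difference of 1.27. In these genes Scr and RCC2 KO lay closer to each other than to CD24 KO. ZNF429 reached 1 FPKM in CD24 KO alone, as did the sixth member past 2-fold, ZNF826P, and both had to be higher there. ZNF826P was at 0.137 FPKM in Scr and 1.88 in CD24 KO and was listed at 0 in RCC2 KO, so no fold is given against that column. ZNF773, in the last cluster, was at 1.93, 3.74 and 2.99 FPKM and was above Scr in both other columns.

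The members at least 1.5-fold lower in the column labelled CD24 KO were few. ZNF787 was at 13.3 FPKM in Scr, 6.40 in CD24 KO and 14.8 in RCC2 KO, a log2 difference of -0.95 from Scr. ZNF428, with 1 finger, was at 2.41, 1.09 and 2.63 FPKM, a difference of -0.70, and its position overlaps SRRM5. ZNF114 was at 5.53, 3.22 and 5.34 FPKM, and ZNF557 at 2.95, 1.59 and 2.61 FPKM. All of these had Scr and RCC2 KO near each other and CD24 KO lowest. The last was ZNF724, at 1.60, 0.657 and 1.78 FPKM, of whose transcript 52.1% of the 100-base words are shared with others. It reached 1 FPKM in Scr and RCC2 KO but not in CD24 KO, so it had to be lower there.

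Members with and without a residue pattern of the KRAB A box had different medians. The residue pattern of the KRAB A box was found in the translated coding sequence of 139 of the 184 members that have one. A gene without it can still hold a variant box or encode one in another transcript. Members with the pattern had a median log2 difference of 0.30 between CD24 KO and Scr, and 112 of the 139 were higher. The 45 without it had a median of -0.00, and 22 were higher. The filter fixed part of these counts and of those below. Members under 1 FPKM in Scr but not in CD24 KO had to be higher. Without the pattern these were ZNF433, ZNF490, ZNF565 and ZNF471. With it they were more, among them ZNF560, ZNF350, ZNF429, ZNF613, ZNF415 and ZNF649. ZNF724 with the pattern and ZNF296 without it had to be lower. Their levels differed too, with a median of the mean FPKM of 2.42 with the pattern and 4.39 without, and with the level bins subtracted the medians were 0.17 and -0.02. Outside the 2 clusters from ZNF146 and ZNF175, which were picked by these same values, 65 of 91 members with the pattern were higher (median 0.18). Of those without it, 17 of 40 were higher (median -0.08). Inside them, 47 of 48 with the pattern and 5 of 5 without were higher, with medians of 0.46 and 0.42. On other chromosomes, 34 of 59 ZNF genes with the pattern were higher (median 0.07) and 72 of 157 without it (median -0.04). By number of fingers, members with up to 7 had a median of -0.00 (25 genes), those with 8 to 12 of 0.31 (69 genes) and those with 13 or more of 0.20 (90 genes).

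**Figure D4:**
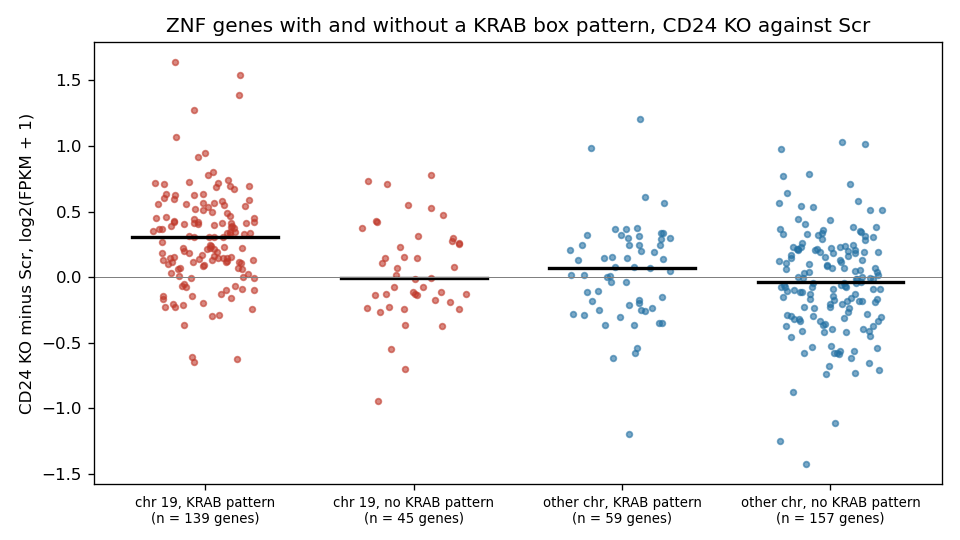
Difference of log2(FPKM + 1) between CD24 KO and Scr (vertical axis) for ZNF genes on chromosome 19 and on other chromosomes, with and without the KRAB A box pattern; each point is a gene, spread sideways for legibility, and black lines are medians. The medians are 0.30, -0.00, 0.07 and -0.04 from left to right.

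Members with known targets took part to different degrees. ZNF274, which recruits SETDB1 to the 3′ ends of ZNF genes, was at 5.80 FPKM in Scr, 8.28 in CD24 KO and 5.92 in RCC2 KO. ZNF91, which represses SVA elements, was at 2.20, 2.63 and 2.59 FPKM. ZNF93, which represses LINE-1 elements, was at 1.76, 2.63 and 2.27 FPKM. The CD24 KO value was highest in each of these genes, but all were under 1.5-fold, at differences from Scr of 0.45, 0.18 and 0.39. ZNF224, a repressor of the aldolase A gene, was at 2.60, 3.58 and 2.62 FPKM.

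A broad list of KRAB corepressors and other genes of chromatin silencing and DNA methylation was mostly lower in the column labelled CD24 KO. Of its 25 genes, 23 were compared, and 5 were higher than in Scr and 18 lower, with a median log2 difference of -0.26. Over all genes compared 52.9% were lower. Most of the list was highly expressed: 18 of the 23 had a mean of at least 10 FPKM, and 15 of these were lower, with a median of -0.23, where genes of that level not named ZNF had a median of -0.13 and 37.7% higher. At least 1.5-fold, 0 genes of the list were higher, against 9.55% of all genes, and 4 lower, against 11.6%. These were TRIM28, which KRAB domains bind (79.3, 41.3 and 78.6 FPKM in Scr, CD24 KO and RCC2 KO), DNMT1, the maintenance DNA methyltransferase (77.1, 40.9 and 75.7), its cofactor UHRF1 (9.97, 3.31 and 12.3), and the H3K9 methyltransferase SUV39H1 (7.22, 3.25 and 7.59). In each of them Scr and RCC2 KO were nearer to each other than to CD24 KO, which was lowest. SETDB1 was at 26.8, 22.0 and 26.0 FPKM. In RCC2 KO against Scr the list had a median of 0.03, with 14 higher and 9 lower and none past 1.5-fold. Whether these levels had a part in those of the ZNF genes was not tested.

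In the column labelled RCC2 KO the ZNF genes of chromosome 19 lay close to Scr. The median log2 difference was 0.02, with 105 members higher and 81 lower, and all differences fell between -0.52 and 0.46. The filter fixed part of this split. The 3 members that passed through RCC2 KO alone and the 8 through CD24 KO and RCC2 KO had to be higher. The 7 that passed through Scr and CD24 KO had to be lower. With 1 FPKM in all 3 columns the median was 0.02, with 57.2% of 152 members higher. The split of all members depended on scaling: 72.6% were higher (median 0.10) after quantile normalization and 68.3% (median 0.07) with level bins subtracted, against 56.5% as deposited. None was at least 1.5-fold higher, against 1.45% of all genes, or lower, against 3.82% of all genes. At 2-fold the shares of all genes were 0.406% higher and 0.796% lower. Adding 1 narrows differences at low FPKM, where most members lay. With 0.1 added instead, 6 members were at least 1.5-fold higher and 4 lower, and no share of all genes is given at that setting. Over the other genes of chromosome 19 the median was -0.09, and over ZNF genes of other chromosomes 0.03.

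Some clusters leaned one way in this comparison. In the cluster from ZNF101 to ZNF254, 15 of 17 members were higher in RCC2 KO than in Scr, with a median of 0.19, and the run of 11 members in a row from ZNF85 to ZNF254 was higher throughout. Of these ZNF506 was under 1 FPKM in Scr but not in RCC2 KO and had to be higher. All 4 members from ZNF554 to ZNF77 were lower, with a median of -0.29. Here ZNF554 reached 1 FPKM in Scr and CD24 KO but not in RCC2 KO and had to be lower. The largest single decreases were those of ZNF57 in the cluster from ZNF554, at 8.44, 7.80 and 5.59 FPKM in Scr, CD24 KO and RCC2 KO, and of ZNF230, at 2.25, 2.13 and 1.38 FPKM. ZNF77 was at 4.33, 3.83 and 3.29 FPKM. In these genes RCC2 KO was the lowest column. Among the largest increases was ZNF542P, at 3.53, 3.82 and 5.08 FPKM, a difference of 0.43, and its position overlaps ZSCAN5A. In the clusters from ZNF146 and ZNF175, where CD24 KO was higher almost throughout, the medians of RCC2 KO against Scr were 0.00 and 0.01, with 10 of 20 and 19 of 33 higher. In the latter ZNF613, ZNF701 and ZNF677 were under 1 FPKM in Scr but not in RCC2 KO and had to be higher.

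Set directly against CD24 KO, the column labelled RCC2 KO was lower for most members. This comparison shares its columns with the other comparisons and adds no separate evidence. The median log2 difference was -0.17, with 54 members higher and 132 (71.0%) lower. The filter fixed part of this split. The 14 members that passed through CD24 KO alone and the 7 through Scr and CD24 KO had to be lower. The 3 that passed through RCC2 KO alone and the 2 through Scr and RCC2 KO had to be higher. After quantile normalization 54.8% were lower, and with level bins subtracted 52.7%, nearer to an even split. At least 1.5-fold, 5 members were higher (2.69%, against 13.8% of all genes) and 29 lower (15.6%, against 14.1% of all genes). At least 2-fold, 1 was higher (against 4.02% of all genes) and 5 lower (2.69%, against 4.3%). Of these 5, ZNF350, ZNF429 and ZNF826P reached 1 FPKM in CD24 KO alone and ZNF404 in Scr and CD24 KO. Each of those named had to be lower in RCC2 KO than in CD24 KO. With 1 FPKM in all 3 columns, 18 of 152 members (11.8%) were at least 1.5-fold lower, against 11.4% of 11588 genes. At that setting 4 (2.63%) were at least 1.5-fold higher, against 14.3%, and 0 were at least 2-fold lower. With the columns quantile normalized, the split at 1.5-fold was 11 higher and 18 lower. The member at least 2-fold higher was ZNF787, at a difference of 1.10. ZNF544, at 7.47, 5.55 and 9.92 FPKM in Scr, CD24 KO and RCC2 KO, was higher by 0.74, with Scr between the other columns. The lower side was led by ZNF404, at -1.78. ZNF350 was at -1.47, and ZNF826P, listed at 0 in RCC2 KO, is left out of the order. The clusters from ZNF175 and ZNF146 had medians of -0.45 and -0.37, with 31 of 33 and 19 of 20 members lower, and the longest run was 21 lower members in a row, from ZNF528 to ZNF331. In these clusters ZNF649, ZNF350, ZNF415 and ZNF565 reached 1 FPKM in CD24 KO alone and had to be lower in RCC2 KO.

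Ranked within each gene, the highest of the 3 values was in CD24 KO for 123 members, in RCC2 KO for 43 and in Scr for 20. The lowest was in Scr for 75, in RCC2 KO for 70 and in CD24 KO for 41. Most members thus had Scr and RCC2 KO below CD24 KO, in either order. The filter fixed part of these ranks. The 14 members that passed through CD24 KO alone had to be highest there, and the 3 through RCC2 KO alone highest in RCC2 KO. The 8 that passed through both had to be lowest in Scr. The 7 that passed through Scr and CD24 KO had to be lowest in RCC2 KO, and the 2 through Scr and RCC2 KO lowest in CD24 KO. The highest members in Scr of the remaining clusters, ZNF791 (7.57, 8.51 and 7.79 FPKM), ZNF675 (6.70, 8.05 and 7.50 FPKM) and ZNF302 (11.0, 11.6 and 11.6 FPKM), had both other columns above Scr. The positions of 27 members overlap another gene, among them ZNF146 with ZNF565 and ZNF829 with ZNF790. Without these 27 members the median of CD24 KO against Scr was 0.19, and 19 of 159 (11.9%) were at least 1.5-fold higher, against 9.55% of all genes.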

How the data were processed

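RNA of 6 DU145 libraries, 2 per condition, was measured by RNA-seq. The authors deposited 1 table of FPKM values, with 1 column per condition. The submitters' processing notes name HISAT, StringTie, Cufflinks and GATK without versions. The deposited FPKM values were used as scaled by the authors, and changes are differences of log2(FPKM + 1). At 1 value per condition no test could be fitted, and calls are 1.5-fold or 2-fold on that scale. The labels describe an RNA kit for total RNA and the methods a stranded mRNA kit, and whether the FPKM used strand is not given in the sources used here.

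The build is not named. Of the 186 members, 5 overlapped their GRCh38 position in GENCODE 29, and 7 ended past the last gene there, so positions were read as hg19. Starts were written from 1. Transcript length, GC content, coding sequences and the share of 100-base words held by another transcript came from GENCODE 29, promoters from RefSeq (GRCh38.p14). Fingers were counted by the spacing of cysteines and histidines, and the KRAB A box by a residue pattern.

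The members and all lists were chosen with earlier results of these data known. Members were named by rule: the 6 highest in Scr, the 4 largest increases and decreases in each comparison among members above 0 throughout that reached 2 FPKM in the comparison, the highest in Scr of each cluster, and 8 with known functions. Other names were chosen after their values were seen.

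Alternatives were other filters, pseudocounts of 0.1 and 5, quantile normalization, median centring, removal of genes at 0 or with overlapping positions, correction for GC content and length, other gaps, and, added later, level bins and removal of members that passed through CD24 KO alone or share words. The calculations were tested on simulated data. Python 3.11.15, NumPy 2.4.6, pandas 2.3.3 and matplotlib 3.10.9 were used.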

Additional observations from a re-analysis of the deposited data

How the results depend on the processing

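The members' median kept its sign in all 3 comparisons under every alternative run, from 0.10 to 0.28 for CD24 KO against Scr, 0.01 to 0.10 for RCC2 KO against Scr and -0.24 to -0.04 for RCC2 KO against CD24 KO. The cause of each shift below was not tested. For CD24 KO against Scr the median fell to 0.101 with a pseudocount of 5 and to 0.119 with level bins, a correction chosen after seeing the data. Members at least 1.5-fold higher numbered 18 with 1 FPKM in all 3 columns, 17 with 3 FPKM in any column, 55 and 2 with pseudocounts of 0.1 and 5, and 19 without overlapping positions, and those lower 2 with 3 FPKM and 1 with a pseudocount of 5. For RCC2 KO against Scr, a pseudocount of 0.1 gave 6 higher and 4 lower. For RCC2 KO against CD24 KO the median was -0.048 after quantile normalization and -0.040 with level bins. Lower members numbered 18 with 1 FPKM in all 3 columns, 18 with 3 FPKM, 50 and 2 with pseudocounts of 0.1 and 5, 18 after quantile normalization, 19 without overlapping positions and 15 with level bins. Higher members numbered 3 with 3 FPKM, 10 and 1 with pseudocounts of 0.1 and 5, 11 after quantile normalization, 11 with level bins, and 3 without members that share 100-base words, an alternative added after seeing the data.

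Of 405 cluster medians recomputed, 34 turned sign, 22 of them from a median nearer to 0 than 0.1. The other 12 follow. CD24 KO against Scr became -0.10 (1 FPKM in all 3 columns) and -0.12 (3 FPKM) for ZNF554 to ZNF77, -0.0058 (level bins) for ZNF653 to ZNF791, and -0.046 (quantile), -0.072 (level bins) and -0.0077 (no shared words) for ZNF575 to ZNF296. RCC2 KO against CD24 KO became 0.030 for ZNF557 to ZNF846 with 1 FPKM in all columns or in Scr, 0.030 (quantile) and 0.055 (level bins) for ZNF575 to ZNF296, and 0.040 (quantile) and 0.036 (level bins) for ZNF628 to ZNF446. In the clusters from ZNF146 and ZNF175 the median of CD24 KO against Scr stayed above 0 in each alternative. A gap of 2 Mb joined ZNF302 to ZNF573 into 1 cluster, with 25 of 25 members higher, and put ZNF175 to ZNF331 into a cluster from ZNF541 to ZNF446, with 65 of 81 higher and a median of 0.22.

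No paired analysis was possible because the table holds 1 column per condition, and for the same reason the fits without single libraries were not run. Depth is unknown.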

Other observations

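Some zinc finger genes of chromosome 19 carry names other than ZNF. Of 8 with a ZFP or ZSCAN name, 4 were higher in the column labelled CD24 KO than in Scr, with a median log2 difference of 0.03. ZSCAN18, which carries a SCAN domain, was at 2.64 FPKM in Scr, 5.83 in CD24 KO and 3.65 in RCC2 KO, and ZFP28 at 1.97, 4.40 and 2.19 FPKM. Both lie in the cluster from ZNF628 to ZNF446 and stood highest in CD24 KO. In the cluster from ZNF146 to ZNF573, ZFP82 was at 2.70, 4.65 and 3.53 FPKM, while ZFP30, farther along the same cluster, was at 3.14, 2.83 and 2.93 FPKM, on the other side of Scr. ZFP36, a CCCH zinc finger protein that destabilises mRNA and lies outside the clusters, was at 50.9, 46.4 and 31.0 FPKM, lowest in RCC2 KO. These genes were chosen after their values were seen.

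The ZNF genes of the chromosome under 1 FPKM in every column were mostly above 0. Of the 68, 50 were above 0 in Scr, 53 in CD24 KO and 48 in RCC2 KO, and 37 were higher in CD24 KO than in Scr and 28 higher in RCC2 KO than in Scr.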
